A study of Mus musculus with 31 samples.

Results

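The T-box transcription factor genes Tbx1, Tbx2, Tbx3, Tbx4, Tbx5 and T, 6 genes in all, were followed through peak lists of 2 histone marks in mouse primordial germ cells, from which oocytes and spermatogonia later form. The genes were covered by 5 windows of the mm9 genome, and every peak that overlapped a window was taken. The windows were chr16:18565000-18610000 for Tbx1 (45 kb), chr11:85625000-85740000 for Tbx2 and Tbx4 together (115 kb), chr5:120090000-120160000 for Tbx3 (70 kb), chr5:120265000-120360000 for Tbx5 (95 kb) and chr17:8610000-8650000 for T (40 kb). They held 273 of the 265274 peaks of the series, of which 251 of 62662 were H3K27me3 peaks and 22 of 202612 were H3K9me3 peaks. The 3 groups were E13.5 female, E13.5 male and E10.5 germ cells (embryonic days), with 3 libraries of each mark per group. All embryos were wild type and came from the background C57BL/6 x GOF18delta_PE-EGFP, which carries an EGFP reporter active in germ cells. Cells were sorted by flow cytometry, the E10.5 cells were pooled over embryos and carry no sex label, and each immunoprecipitation used 1000 cells, unfixed chromatin cut with micrococcal nuclease and 250 ng of antibody. The labels do not say that libraries of a group came from separate animals, so the p-values below reflect library-to-library variation that could be purely technical. The peak names number the libraries of replicates 1 and 2 in the same order, and the labels do not say whether these are the same cells processed again. The lists name no genes, and the annotation used here is of another genome build, so germ cell markers were not checked and positions inside a window are given as distances and coordinates, not as promoters or exons.

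T-box proteins are transcription factors that share a DNA-binding domain named after T, also called Brachyury, and they set up mesoderm, limbs, heart and pharyngeal organs in the embryo. Tbx2 and Tbx3 are repressors, Tbx4 and Tbx5 are activators known for hindlimb and forelimb outgrowth, Tbx1 acts in the pharyngeal arches, and T acts in the primitive streak and notochord. H3K27me3 is laid down by Polycomb repressive complexes and typically covers silent developmental regulators of this kind in broad blocks, whereas H3K9me3 marks heterochromatin and repeats. In the RefSeq annotation of GRCm38.p6 Tbx2 and Tbx4 are neighbouring coding genes, and so are Tbx3 and Tbx5. Tbx2 follows Bcas3 and Tbx4 precedes Brip1, while Med13l lies before Tbx3 and Rbm19 after Tbx5.

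Polycomb marking in mammals is known to favour promoters rich in CG dinucleotides, so the 250 bases before the annotated start are shown for T, Tbx1 and Tbx4, which have an entry in the RefSeq promoter table of GRCm38.p6. Tbx2, Tbx3 and Tbx5 were not matched. Capitals mark every CG, and each sequence runs 5′ to 3′ on the strand of its gene. Tbx1 has a second entry, at chr16:18590672-18590921, that is not printed and holds 10 CG.
T, chr17:8434173-8434422, plus strand: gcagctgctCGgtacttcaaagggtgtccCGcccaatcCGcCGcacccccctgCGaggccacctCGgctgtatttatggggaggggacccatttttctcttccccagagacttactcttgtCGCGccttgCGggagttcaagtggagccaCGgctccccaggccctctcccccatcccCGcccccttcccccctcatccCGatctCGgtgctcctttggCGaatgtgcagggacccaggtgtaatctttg
Tbx1, chr16:18588900-18589149, minus strand: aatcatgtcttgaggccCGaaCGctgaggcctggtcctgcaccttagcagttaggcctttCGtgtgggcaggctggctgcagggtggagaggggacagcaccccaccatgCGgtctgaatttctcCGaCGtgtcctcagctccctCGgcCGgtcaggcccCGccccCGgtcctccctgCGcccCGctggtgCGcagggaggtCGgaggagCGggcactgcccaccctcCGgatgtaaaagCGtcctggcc
Tbx4, chr11:85896515-85896764, plus strand: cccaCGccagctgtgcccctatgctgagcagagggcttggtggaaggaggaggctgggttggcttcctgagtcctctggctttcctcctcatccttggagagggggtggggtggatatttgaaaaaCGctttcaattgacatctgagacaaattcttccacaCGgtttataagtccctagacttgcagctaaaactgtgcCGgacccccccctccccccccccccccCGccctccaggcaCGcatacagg
The Tbx1 sequence holds 17 CG, more than 76.5% of the 32851 promoters of that length in the table. The T sequence holds 14 CG, more than 70.6% of them, and the Tbx4 sequence 6, which is also the median of all promoters. At least 1 CG is present in 92.1% of the table. These coordinates are of GRCm38.p6 and were not placed on the mm9 peaks, so the sequences describe the genes and not the peaks.

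H3K27me3 was present in all 5 windows in every E10.5 list. At E13.5 the female lists had peaks in 4 windows each, all but that of Tbx1. Male lists had peaks in 5, 1 and 5 windows. Covered length, the summed length of a window that lies in peaks, was on average longest in the Tbx3 window and second longest in the Tbx5 window in each of the 3 groups. The total over the 5 windows was 14.4, 46.1 and 24.7 kb in E13.5 female lists and 19.5, 0.198 and 33.5 kb in E13.5 male lists, against 105, 26.2 and 142 kb in E10.5 lists. How much was called differs as strongly over the whole genome, and without read counts the depth behind it is not known. The H3K27me3 lists covered 1.56, 5.22 and 4.13 Mb in E13.5 females and 2.47, 0.159 and 3.99 Mb in E13.5 males, against 19.9, 2.08 and 35.5 Mb at E10.5. Male replicate 2 and E10.5 replicate 2 therefore stand apart from their groups, and E10.5 replicate 3 was called, by its peak names, against an input made for H3K9me3.

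**Figure D1:**
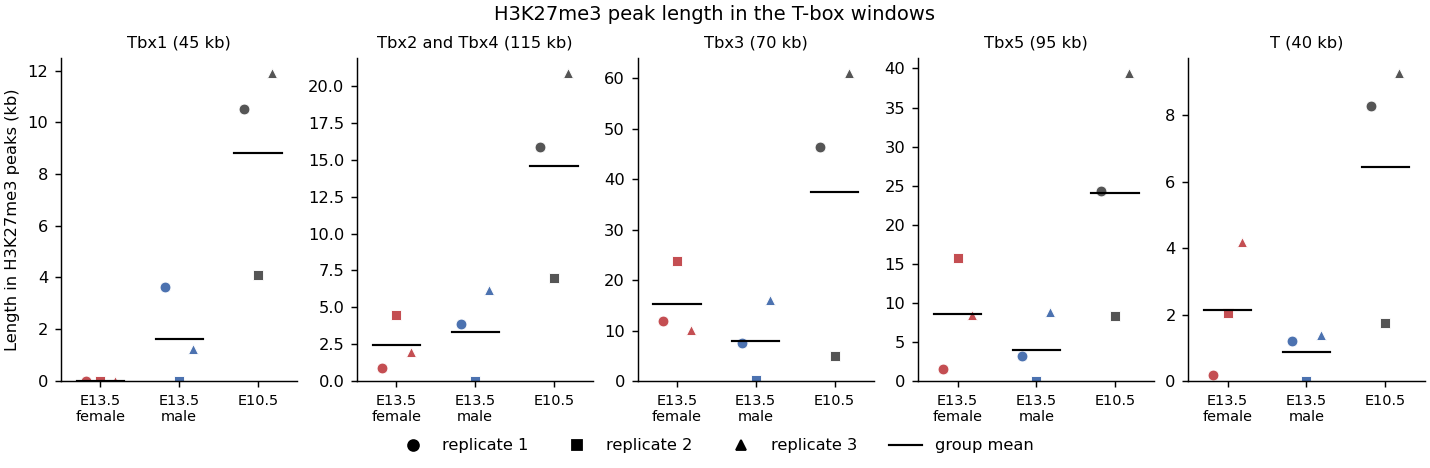
Length in H3K27me3 peaks (kb) in each window for E13.5 female, E13.5 male and E10.5 libraries. Points are libraries (3 per group, shape by replicate number) and lines are group means; the E10.5 points lie above all E13.5 points in the Tbx1 window and in the Tbx2 and Tbx4 window, and overlap them in the other 3.

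The Tbx3 window carried the most H3K27me3 by group means, though not in E10.5 replicate 2, where the Tbx5 window and the Tbx2 and Tbx4 window had more. Its peaks covered 11.9, 23.8 and 10.2 kb in E13.5 female lists and 7.57, 0.198 and 16.0 kb in E13.5 male lists, against 46.5, 5.03 and 61.0 kb in E10.5 lists. In the 2 long E10.5 lists 66.4 and 87.2% of the window lay in peaks, and in E10.5 replicate 2 only 7.18% did, less than in any female list. Set against all 37748 tiles of 70 kb along the genome, the window ranked 4, 4 and 36 by covered length in the female lists, 33, 289 and 13 in the male lists, and 10, 111 and 8 in the E10.5 lists. The tiles with a peak numbered 1457, 3069 and 3135 in the female lists and 1952, 308 and 2553 in the male lists. In the E10.5 lists they numbered 4833, 1043 and 7033. Rank 289 in male replicate 2 thus lay near the end of the tiles with a peak. The Tbx3 window was also the one window with a peak in all 9 lists, as 80 tiles of that length had. The E13.5 mean was 11.6 ± 7.97 kb (SD, n = 6) and the E10.5 mean 37.5 ± 29.1 kb (n = 3), a difference of -25.9 kb with an exact two-sided permutation p of 0.0714, so the difference was within the spread. Without E10.5 replicate 2, the E10.5 list that overlaps E13.5, the difference was -42.2 kb. Its exact permutation p of 0.0357 is the smallest that the remaining libraries can give.

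Peaks in the Tbx3 window were scattered along its whole length at both stages, as the map of peaks shows. All 3 E10.5 lists shared 4.35 kb, with 1 segment over 1 kb, chr5:120131429-120132611, about 42 kb from the window's start. Both long E10.5 lists carried single very wide peaks there. The widest were chr5:120103529-120120517 in replicate 3 (16989 bp) and chr5:120110534-120125556 in replicate 1 (15023 bp). In E13.5 females 12.6 kb lay in peaks of at least 2 libraries, in 17 segments, of which 4 were over 1 kb. The longest of these, chr5:120106822-120108970 (2149 bp), lies inside the widest E10.5 peak. No base was covered in all 3 male lists.

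Tbx2 and Tbx4 share a window, and their H3K27me3 lay mostly in 1 block of 21.6 kb, chr11:85638644-85660200. That block held 29 of the 37 peaks and was occupied in every list but male replicate 2. Peaks covered 0.91, 4.45 and 1.97 kb of the window in E13.5 female lists and 3.88, 0 and 6.14 kb in E13.5 male lists, against 15.9, 6.96 and 20.9 kb in E10.5 lists. Every E13.5 value was below every E10.5 value. The means were 2.89 ± 2.33 kb at E13.5 (SD, n = 6) and 14.6 ± 7.04 kb at E10.5 (n = 3), a difference of -11.7 kb with an exact permutation p of 0.0119, the smallest that 6 against 3 libraries can give. A segment of 5417 bp, chr11:85647585-85653001, and another of 1547 bp, chr11:85642847-85644393, were covered in all 3 E10.5 lists. In females 0.173 kb was covered in all 3 lists, and in males none was. Of 2 further blocks, the one near the window's end, chr11:85736499-85740149, was held by 2 E10.5 lists and 1 male list, and the one at chr11:85700874-85709898 by 2 E10.5 lists alone.

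The Tbx5 window had H3K27me3 in its first 68.2 kb. The peaks covered 1.48, 15.8 and 8.42 kb in E13.5 female lists and 3.19, 0 and 8.81 kb in E13.5 male lists, against 24.3, 8.33 and 39.4 kb in E10.5 lists. The E10.5 replicate 2 value lies below the 3 highest E13.5 values, so the groups overlap. The E13.5 mean was 6.27 ± 5.88 kb (SD, n = 6) and the E10.5 mean 24.0 ± 15.5 kb (n = 3), a difference of -17.7 kb with an exact permutation p of 0.0476. That call was lost when the smaller tail was doubled for the p (p = 0.0952, exact permutation). It was also lost without any one of 8 of the 9 libraries (exact permutation p up to 0.179), all but E10.5 replicate 2. All 3 E10.5 lists shared a segment of 5044 bp, chr5:120279270-120284313. The widest E13.5 peak of all 5 windows, chr5:120281446-120288478 (7033 bp, male replicate 3), overlaps that segment and was the second widest of its whole list.

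The Tbx1 window was the one with no H3K27me3 peak in any E13.5 female list. It had 3.62, 0 and 1.24 kb in peaks in E13.5 male lists, against 10.498, 4.10 and 11.9 kb in E10.5 lists. The E13.5 and E10.5 values did not overlap. The means were 0.810 ± 1.46 kb at E13.5 (SD, n = 6) and 8.83 ± 4.15 kb at E10.5 (n = 3), a difference of -8.02 kb with an exact permutation p of 0.0119. All peaks lay in 1 block of 15.8 kb, chr16:18579512-18595329. In E10.5 replicate 3 a single peak of 11886 bp spans most of it, while replicates 1 and 2 had 3 peaks each. The segment chr16:18588531-18590378 (1848 bp) was covered in all 3 E10.5 lists, and in the male list with the longest coverage the widest peak, chr16:18587486-18590448, overlaps it. Of the 70-kb tiles with a peak in every E10.5 list, 13.3% were at 0 in every female list, so the absence of a female peak at Tbx1 is shared with many regions.

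The T window, the smallest, had 0.191, 2.04 and 4.19 kb in H3K27me3 peaks in E13.5 female lists and 1.21, 0 and 1.37 kb in E13.5 male lists, against 8.28, 1.75 and 9.26 kb in E10.5 lists. E10.5 replicate 2 lay within the female range and above every male value. The means were 1.50 ± 1.52 kb at E13.5 (SD, n = 6) and 6.43 ± 4.09 kb at E10.5 (n = 3), a difference of -4.93 kb with an exact permutation p of 0.0357. With the smaller tail doubled the p was 0.0714 (exact permutation). Without female replicate 1, any 1 male list, or E10.5 replicate 1 or 3, the exact permutation p was 0.0536 to 0.107. In all 3 E10.5 lists 1.71 kb was shared, including chr17:8626980-8627988. The widest peak there, chr17:8623498-8631507 (8010 bp), was in E10.5 replicate 3, and no base of the window was covered in all 3 lists of either sex at E13.5.

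**Figure D2:**
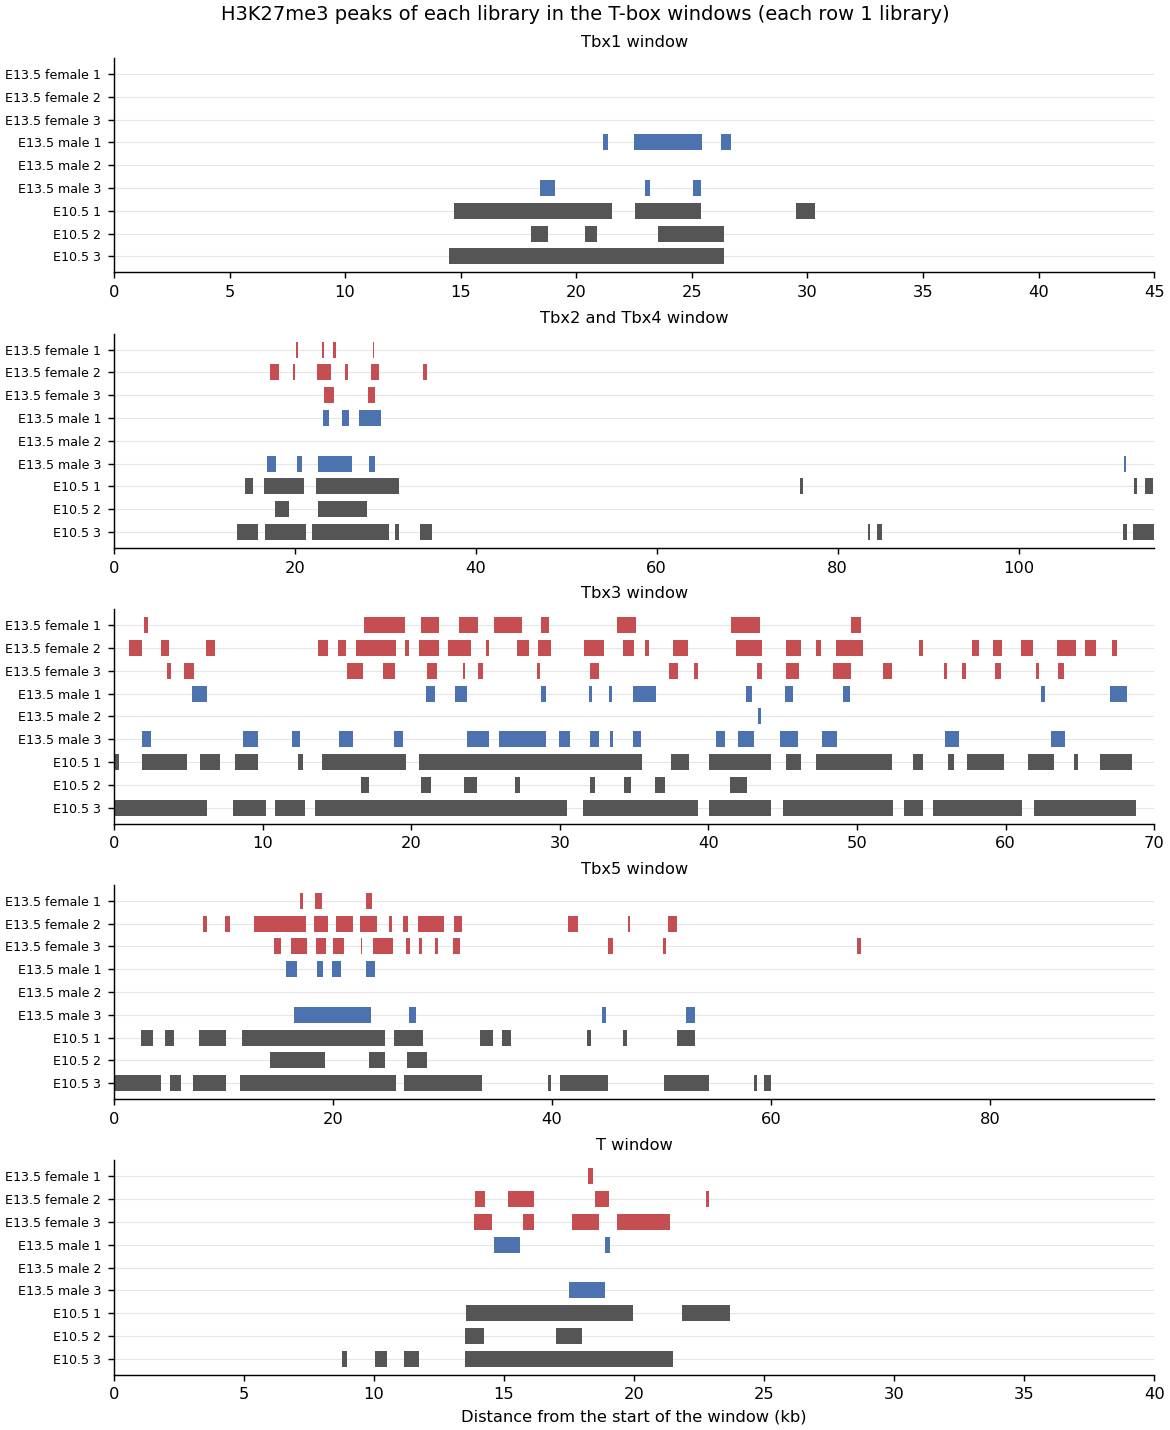
H3K27me3 peaks in the 5 windows, with distance from the start of the window (kb) on the x axis and 1 row per library (E13.5 female above E13.5 male above E10.5). The wide bars at E10.5 reach 16989 bp in the Tbx3 window, where E13.5 lists show many short bars; the Tbx1 rows of the 3 female libraries are empty.

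Of the 5 windows, 4 had shorter coverage at E13.5 at an exact permutation p of 0.05 or less and 2 did not overlap. The 70-kb tiles, as long as the median window, serve as background, and among the 869 with a peak in every E10.5 list 77.4% passed the same test in that direction and 36% did not overlap. These shares are close to those of the windows, so lower coverage at E13.5 was not particular to the T-box windows. No window had longer coverage in every E13.5 list than in every E10.5 list, and 0.115% of the tiles did. The p-values belong to 20 tests of H3K27me3, 5 windows by 4 comparisons, and are not adjusted because the windows were chosen with earlier results known.

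Sex by sex, 3 against 3 libraries cannot go below an exact permutation p of 0.1. In females against E10.5 the differences were -8.83 kb for Tbx1 and -12.1 kb for Tbx2 and Tbx4, both without overlap, as in 45.1% of the tiles with a peak in every E10.5 list. For Tbx3, Tbx5 and T they were -22.2, -15.5 and -4.29 kb, with overlap. In males against E10.5 they were -7.21 kb for Tbx1, -11.2 kb for Tbx2 and Tbx4 and -5.57 kb for T without overlap (52.2% of tiles), and -29.6 and -20.0 kb for Tbx3 and Tbx5 with overlap. Between the sexes no window separated the libraries. Females minus males gave 7.37 kb for Tbx3, 4.55 kb for Tbx5 and 1.28 kb for T, and -0.897 kb for Tbx2 and Tbx4 and -1.62 kb for Tbx1, with exact permutation p-values of 0.4 to 0.8. Leaving out 1 library moved these differences to 3.09 to 11.4 kb for Tbx3, 0.949 to 8.09 kb for Tbx5, 0.253 to 2.25 kb for T and -2.43 to -0.618 kb for Tbx1, and turned the one of Tbx2 and Tbx4.

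Wide peaks in the windows were mostly at E10.5. In the Tbx3 window female lists held 9, 27 and 20 peaks of 1317, 883 and 508 bp on average. Male lists held 12, 1 and 17 peaks there, of 631, 198 and 940 bp. The E10.5 lists held 17, 8 and 10 peaks of 2742, 629 and 6297 bp. Peaks of at least 5 kb made up none of the 106 female peaks, 1 of the 55 male peaks (1.82%) and 21 of the 90 E10.5 peaks (23.3%) in the 5 windows. The same shares over all H3K27me3 peaks were 0.0463, 0.196 and 5.87%. Of the 21 wide E10.5 peaks, 12 were in replicate 3, 7 in replicate 1 and 2 in replicate 2. Median widths in the windows were 625 bp in females and 694 bp in males, against 1494 bp at E10.5, where the medians over all peaks were 485, 519 and 793 bp. The 2 longest lists thus held most of the wide peaks. The short list of E10.5 replicate 2 (2.08 Mb) had 2 wide peaks among its 18 in the windows, with 0 of them in the Tbx3 window. Its median width over all peaks was 827 bp, against 283 to 553 bp in the E13.5 lists. Effects of stage and list length on width were not tested apart.

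**Figure D3:**
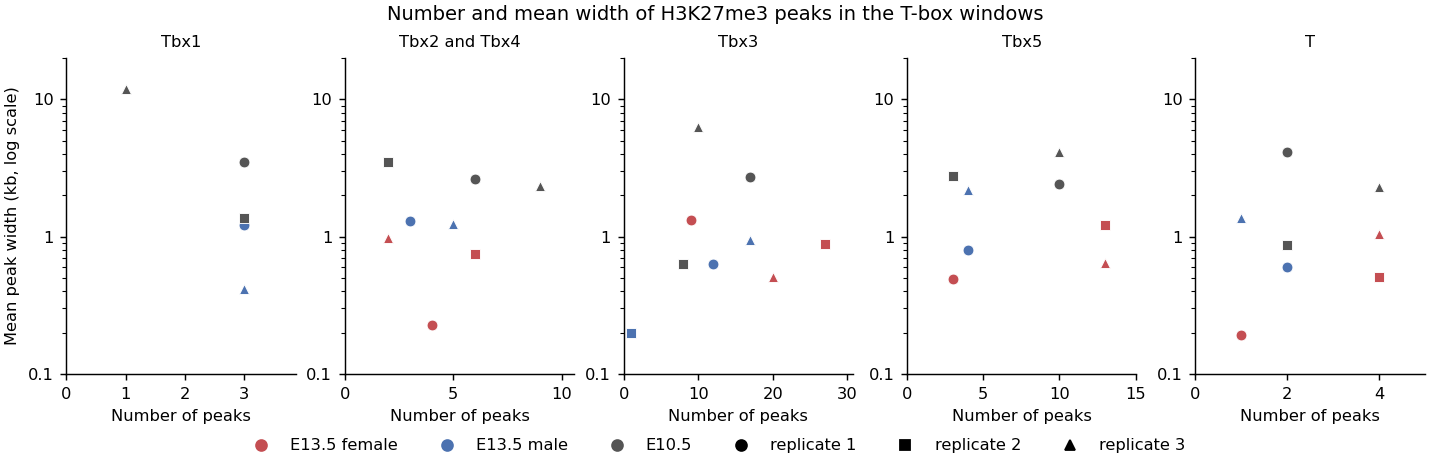
Number of H3K27me3 peaks (x axis) and their mean width (kb, y axis, log scale) in each window, 1 point per library with a peak there, colour by group and shape by replicate number. E10.5 replicates 1 and 3 sit high in most windows, while in the Tbx3 window the female lists reach 27 peaks below 1.5 kb.

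Expressed as a share of the list's own peak length, the Tbx3 window had a positive E13.5 minus E10.5 difference and the other windows a negative one. The Tbx3 window held 7603, 4568 and 2459 ppm in E13.5 female lists and 3060, 1245 and 4005 ppm in E13.5 male lists, against 2341, 2413 and 1717 ppm at E10.5. Every female value was above every E10.5 value, a pattern that 5.41% of the 869 tiles shared. These tiles were chosen for a peak in every E10.5 list, and the 13.3% at 0 in every female list could not show it. The Tbx3 window had a peak in all 9 lists, so 5.41% does not measure how rare the pattern is among tiles like it. The E13.5 minus E10.5 difference was 1666 ppm (exact permutation p = 0.238), and for females alone it was 2720 ppm (p = 0.1, exact permutation). Peaks were 287, 172 and 92.8 times as dense in the Tbx3 window as in the genome in female lists and 115, 47.0 and 151 times in male lists, against 88.3, 91.1 and 64.8 times at E10.5. In the other windows the difference in share was -647 ppm for Tbx1, -739 ppm for Tbx2 and Tbx4, -527 ppm for Tbx5 and -112 ppm for T, with exact permutation p-values of 0.143 to 0.679. Tbx1, at 0 in females, was the one window with every female share below every E10.5 share, as were 33.9% of the tiles. On this scale 29.2% of the tiles were lower at p of 0.05 or less and no window was.

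A second way to even out length kept only the highest scored peaks of each list up to 1.56 Mb, which leaves out male replicate 2. That is the full length of the female replicate 1 list, so its window values did not change. The lists of E10.5 replicates 1 and 3 were cut from 19.9 and 35.5 Mb. The deposited peak scores, whose scale is not known, are the authors' and were used for nothing but ranking peaks inside 1 list. The Tbx2 and Tbx4 window then had 0.91, 0 and 0.83 kb in female lists and 3.12 and 4.41 kb in male lists, against 9.08, 6.96 and 8.51 kb in E10.5 lists. The groups still did not overlap, which 3.22% of the tiles showed, and the difference was -6.33 kb (exact permutation p = 0.0179, the smallest for 5 against 3). The tiles, of 70 kb against 115 kb for this window, were chosen by peaks in the full E10.5 lists. A tile left without a top-ranked peak in 1 of the E10.5 lists could not show the pattern. The 3.22% therefore does not measure how rare it is among tiles that could. The Tbx3 window had 11.9, 4.72 and 6.11 kb in female lists and 3.72 and 2.30 kb in male lists, against 0.44, 3.41 and 1.31 kb in E10.5 lists. There the females lay above E10.5 without overlap, as 7.59% of the tiles did, and the difference of both sexes to E10.5 was 4.02 kb (exact permutation p = 0.125). Tiles at 0 in 1 or more of the female lists could not lie above E10.5 in this way. The Tbx1, Tbx5 and T windows overlapped between the stages, with differences of -1.42, -2.60 and 0.804 kb and exact permutation p-values of 0.214 to 0.375.

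**Figure D4:**
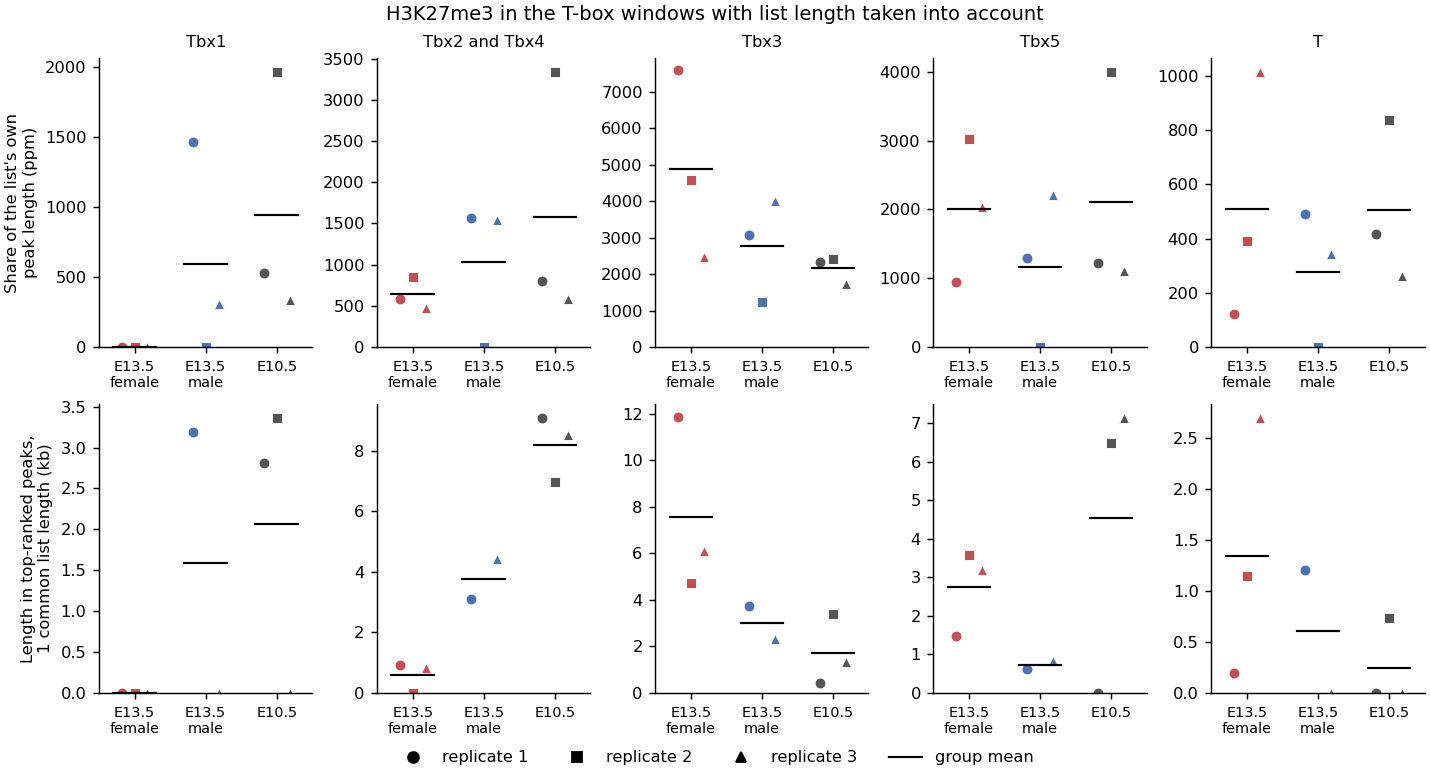
H3K27me3 in each window as a share of the list's own peak length (ppm, top row) and as length in the top-ranked peaks up to 1 common list length (kb, bottom row, without male replicate 2). Points are libraries (shape by replicate number), lines are means; E10.5 points stay above E13.5 points in the bottom panel of Tbx2 and Tbx4, and female points lie above E10.5 points in both Tbx3 panels.

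Bins of 10 kb placed these differences along the windows. Of 38 bins, 27 had an H3K27me3 peak in any list and 20 had one in at least 3 lists. The share of each bin was tested with limma on log2(ppm + 100) over 6014 bins of the genome, a scale that understates changes of bins with little peak length. With limma no bin passed an adjusted p of 0.05 in any comparison, in the windows or elsewhere (0% called). At an unadjusted p under 0.05 limma gave 501 bins for E13.5 against E10.5, of which 3 were in the windows. These 3 were a Tbx1 bin, chr16:18580001-18590000, with a log2 change of -1.85 ± 0.70 (SE; limma adjusted p = 0.437), a Tbx5 bin, chr5:120270001-120280000, with -1.34 ± 0.53 (limma adjusted p = 0.495), and a Tbx3 bin, chr5:120130001-120140000, with 1.03 ± 0.41 (limma adjusted p = 0.505). The Tbx3 bin had a peak in all 9 lists. The median log2 change was -0.15 over the 20 bins and -0.13 over all bins tested. With covered bases in place of shares, limma called 152 bins of the genome, 150 of them lower at E13.5, and 1 of the 20, the same Tbx1 bin, at -4.63 ± 1.19 (limma adjusted p = 0.0465).

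A bin counted as held by a library when at least 1 kb of it lay in peaks. For held bins and ranges, genome shares are over bins with a peak of the mark in any library of the groups compared. For both sexes against E10.5 these were 18849 bins. Of 27 bins, 1 was held throughout E10.5 and in neither sex at E13.5, compared with 0.69% of bins in the genome. That was the Tbx1 bin chr16:18590001-18600000, with 0.205 ± 0.361 kb at E13.5 (SD, n = 6) and 1.34 ± 0.110 kb at E10.5 (n = 3). Bins held throughout E10.5 and by no female library numbered 2, both of Tbx1 (1.05% of the genome's bins). The second, chr16:18580001-18590000, had no peak in females and 7.23 ± 3.96 kb at E10.5. Those held by no male library also numbered 2 (1.22%), the first Tbx1 bin and the Tbx5 bin chr5:120290001-120300000, with 0.205 ± 0.354 kb in males and 4.48 ± 3.09 kb at E10.5 (n = 3 each). No bin of the windows was held by every E13.5 library and no E10.5 library (0.0159% in the genome), and none was held by 1 sex alone (0.52% for females and 0% for males). By ranges alone 2 of 27 bins were lower at E13.5 without overlap (2.74% in the genome) and none was higher (0.0584%). Females alone were lower than E10.5 in 4 of 27 bins (3.6%) and males alone in 5 of 26 (4.16%). Only bins with a peak in every E10.5 list could be lower in this way or held at E10.5 alone. A peak in at least 3 lists was present in 6014 of the 18849 bins of the genome and in 20 of the 27 of the windows. The genome's shares therefore do not measure how rare these patterns are among bins that could show them. Without E10.5 replicate 2, bins held at E10.5 and by no E13.5 library numbered 5 of 27, and those not held by females or by males 6 of 27 and 9 of 26. The genome's shares without that library were 14.6, 17.0 and 21.1%, so the rise was genome-wide.

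H3K9me3 lay in 1 of the 5 T-box windows. No list had an H3K9me3 peak in the windows of Tbx1, Tbx2 and Tbx4, Tbx3 or T, as was true of 46.6% of all 70-kb tiles. All 22 peaks lay in the Tbx5 window, in a stretch of 11.2 kb, chr5:120347026-120358227. The first of them starts 13.8 kb beyond the last H3K27me3 peak, and no base of any window lay in peaks of both marks in libraries of the same group and number. H3K9me3 peaks covered 1.06, 2.75 and 0.21 kb of the Tbx5 window in E13.5 female lists and 8.19, 4.58 and 2.95 kb in E13.5 male lists, against 1.73, 8.34 and 0 kb in E10.5 lists. Female values were below male values without overlap, and E10.5 values spread across both.

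The female minus male difference in H3K9me3 at Tbx5 was -3.90 kb (exact permutation p = 0.1, the smallest for 3 against 3), and -5.04 to -2.42 kb with 1 library left out. Among the 10129 tiles of 70 kb with an H3K9me3 peak in every male list, 76.5% were lower in every female list, so lower female coverage was common outside Tbx5. The female lists of this mark covered 6.04, 12.2 and 4.28 Mb and the male lists 78.9, 46.9 and 25.7 Mb. As a share of own peak length the direction turned, with a female minus male difference of 44.8 ppm (exact permutation p = 0.4). The E10.5 lists covered 2.00, 46.6 and 0.441 Mb, and E13.5 minus E10.5 was -0.067 kb (exact permutation p = 0.988). Of 4 tests of this mark none passed 0.05. The segment covered in all 3 male lists and longer than 1 kb was chr5:120353510-120354601, and in females no base was covered in all 3 lists. limma called neither of the 2 tested bins in any comparison, while of 25564 bins of the genome it called 11 (0.043%) between the sexes and 1 (0.00391%) for females against E10.5. The genome's count between the sexes was 4074, of which 4069 were lower in females, with covered bases, 777 without E10.5 replicate 2 and 0 with a replicate block, and limma called no bin of the windows under these settings.

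**Figure D5:**
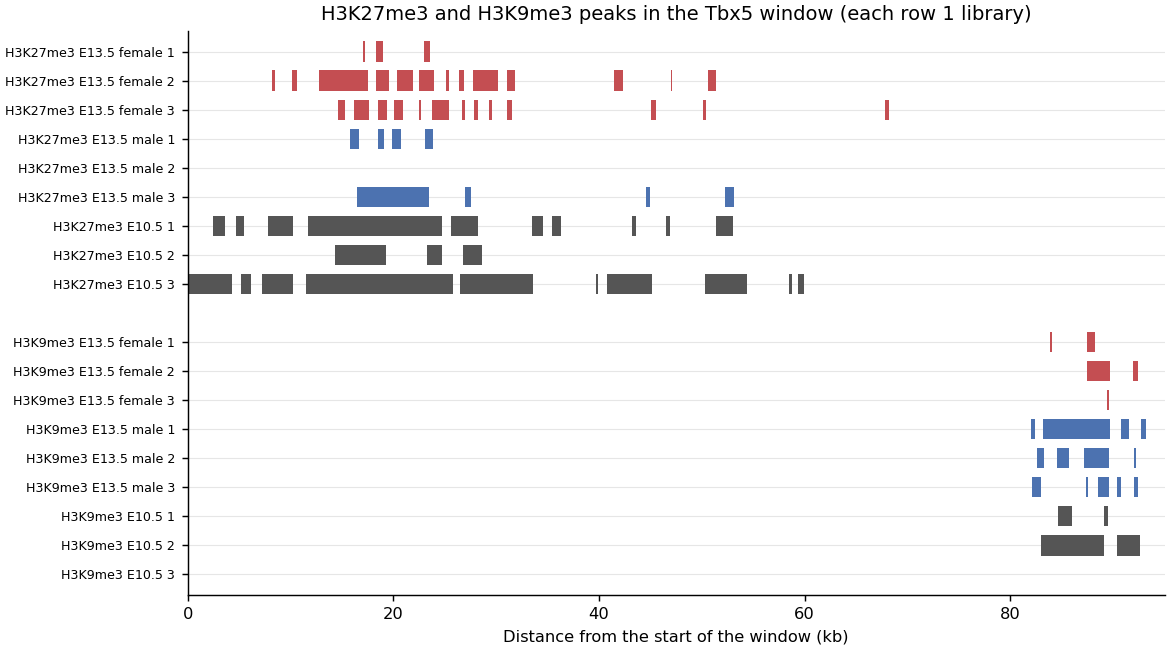
Peaks of H3K27me3 (upper 9 rows) and H3K9me3 (lower 9 rows) in the Tbx5 window by distance from its start (kb), 1 row per library, E13.5 female above E13.5 male above E10.5. H3K27me3 peaks end at 68.2 kb and H3K9me3 peaks start at 82.0 kb, with 13.8 kb free of both.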

How the data were processed

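The 18 files are broad peak lists of single ChIP libraries, called against an input per the peak names. MACS2 2.1.0, BWA 0.7.5a, CASAVA 1.8.4, deepTools 3.3.0, SAMtools, Picard and the build mm9 are named, without role or order, in the submitters' processing notes. The deposited scores (columns 5, 7, 8 and 9) are the authors' own values. Column 9, by the usual layout a q-value score, exceeds column 8 in every peak, so the scale is unknown, and scores only ranked peaks within a list. The 13 input samples were not used. Depth is unknown, so list length stands beside the results.

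The members and lists were chosen with earlier results of these data known. Overlapping peaks were merged, 19 mitochondrial peaks were left out, and peaks were clipped to the windows. Group means of covered kb were compared by exact two-sided permutation over all splits, by the absolute size of the difference (84 splits for 6 against 3 libraries). The background is all 70-kb tiles, the median window length, tested in the same way; it was added after the window values were seen. Shares per 10-kb bin were tested with limma 3.58.1 (R 4.3.3) fitted once per mark over its 9 libraries, on log2(ppm + 100), for bins with peaks in at least 3 libraries, with Benjamini-Hochberg adjustment over the genome. A bin is held with at least 1 kb in peaks. Genome shares of held bins are over bins with a peak of the mark in any library of the groups compared. All 6 genes are described. The peaks and segments named are the widest per list and segments of at least 1 kb in at least 2 of 3 libraries, and bins are named when limma called them or 1 group alone held them; the bins at an unadjusted p under 0.05 were named after their values were seen. Other family members (Tbx6, Tbx10, Tbx15, Tbx18, Tbx19, Tbx20, Tbx21, Tbx22, Eomes, Tbr1 and Mga) were not placed, since coordinates of the GRCm38 annotation were not mixed with mm9. The permutation test was checked on values with known answers (Python 3.11.15, numpy 2.4.6, pandas 2.3.3, scipy 1.17.1). The limma fit was checked, after the main fit, on values simulated from the means and a reduced spread of the real bins.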

Additional observations from a re-analysis of the deposited data

How the results depend on the processing

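The limits of these values are 3 libraries per group, unknown depth and lists of very unequal length. Of 212 window differences recomputed under other settings, 184 kept direction and call, and of 162 with 1 library left out, 140 did. Comparisons of 3 against 3 libraries cannot pass 0.05, so for them only the direction could change. Settings that change only the p could alter nothing there. A call could be lost only by the stage differences in H3K27me3 of Tbx1, Tbx2 and Tbx4, Tbx5 and T. With direction kept, a call was lost in 14 of the 212 and in 14 of the 162. As a share of own peak length the E13.5 minus E10.5 differences in H3K27me3 lost their call for Tbx1 (-647 ppm), Tbx2 and Tbx4 (-739 ppm), Tbx5 (-527 ppm) and T (-112 ppm), and turned for Tbx3 (1666 ppm, with 2720 ppm in females and 613 ppm in males). The share also turned for T in females (3.74 ppm) and for H3K9me3 at Tbx5 in males against E10.5 (-243 ppm) and between the sexes (44.8 ppm). With each list reduced to its 359 top-ranked peaks the calls were lost for Tbx1 (0 kb), Tbx2 and Tbx4 (-2.84 kb), Tbx5 (-2.38 kb) and T (0 kb), since few peaks remain. Up to the common length, chosen after seeing the data, calls were lost for Tbx1 (-1.42 kb) and Tbx5 (-2.60 kb). Values turned there for Tbx3 (4.02 kb, with 5.84 kb in females and 1.29 kb in males), T (0.804 kb, with 1.10 kb in females and 0.360 kb in males) and H3K9me3 at Tbx5 in males against E10.5 (-0.866 kb), where the short E10.5 list drops out. Without the 2 short H3K27me3 lists, also chosen after seeing the data, Tbx3 passed at -39.9 kb (exact permutation p = 0.0476, the smallest that the remaining libraries can give). Doubling the smaller tail, likewise added, lost Tbx5 (-17.7 kb) and T (-4.93 kb). The cause of these changes was not tested beyond what each setting removes.

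Whether replicate numbers pair the libraries is not settled. Same-numbered libraries of different groups correlated at -0.117 to 0.0923 for H3K27me3 and -0.0204 to 0.113 for H3K9me3 in their deviations from the group means. Differently numbered ones correlated at -0.1775 to 0.152 and at -0.0576 to 0.0424. In H3K9me3 of females against E10.5, same numbers gave 0.0748, 0.113 and 0.0716, and different numbers -0.0548 to -0.0303. Pairing there was not tested beyond these values. With replicate block permutation, Tbx5 (-17.7 kb) and T (-4.93 kb) had an exact permutation p of 0.0741, Tbx1 and the Tbx2 and Tbx4 window 0.037, and limma called none of the windows' bins.

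Leaving out 1 library at a time, E13.5 minus E10.5 in H3K27me3 ran from -10.4 to -6.49 kb for Tbx1, -15.5 to -8.52 kb for Tbx2 and Tbx4, -42.2 to -14.2 kb for Tbx3, -25.6 to -10.1 kb for Tbx5 and -7.27 to -3.52 kb for T. Tbx2 and Tbx4 between the sexes ran from -2.57 to 0.505 kb, turning without male replicate 3. H3K9me3 at Tbx5 ran from -1.75 to 2.42 kb between the stages and from -3.69 to 0.476 kb for females against E10.5, turning for females without E10.5 replicate 2. Bins of the windows held by E10.5 and by no E13.5 library numbered 1 to 5 with a library left out, 2 to 6 against females and 2 to 9 against males. The highest came without E10.5 replicate 2, which also raised the genome's shares to 14.6, 17.0 and 21.1%. Those held by females and not males numbered 0 to 2. The count was 2 of 21 without female replicate 1 (2.54% of the genome's bins) and 1 of 20 without male replicate 3 (1.25%). For H3K9me3 those held by males and not females numbered 0 to 1 of 2, the 1 without female replicate 2 (11.2% of the genome's bins) or male replicate 3 (21.1%). By other rules the stage count was 0 for any overlap (0.647% of the genome's bins), 0 for 50% of the bin (0.196%), 0 for 5-kb bins (0.691%) and 2 of 24 for peaks at or above the list's median score (0.673%). The female count was 0 for 50% (0.259%) and 1 for 5-kb bins (1.11%), the male count 1 for any overlap (1.60%) and 0 for 50% (0.233%), and 3 of 17 bins were held by females and not males with the median score (0.592%). With covered bases limma called 1 bin of the windows.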
